A study of Caenorhabditis elegans with 2 samples.

Results

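The microRNA (miRNA) genes of Caenorhabditis elegans were examined for peaks of the tagged protein ZTF-25. Members were all 261 genes annotated as miRNA on the 6 nuclear chromosomes, out of 46890 annotated genes of every kind. A gene was called marked when the summit of a peak, its point of highest signal, lay in the gene body or within 200 bp of it. Genes within 1000 bp of each other on the same strand were counted as 1 cluster, which gave 227 clusters, of which 209 held a lone gene and 1 held 7 genes. The choice of members used no measured value. Chromatin immunoprecipitation and sequencing was done on whole young adults at 63 hours, with an antibody against GFP, in 2 biological replicates of 1 group. The strain was RW12287, whose allele st12287 is an insertion on chromosome V, made by CRISPR, of TY1, EGFP and 3xFLAG tags at the gene ztf-25 itself. Worms were synchronised as L1 larvae starved after bleaching, and chromatin was sonicated to fragments of 200 to 800 bp. There was no second condition, and no untagged strain was analysed here, so every comparison is between genes, not between treatments. Whole worms mix all tissues, and a peak does not say which cells carried it.

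A miRNA gene is copied into a long transcript that folds into a hairpin. The enzymes Drosha and Dicer cut the hairpin to a short mature strand, which an Argonaute protein carries to messenger RNAs that pair with its seed, the bases near its 5′ end. Most animal miRNA genes are read by RNA polymerase II, whereas transfer RNA (tRNA) genes are read by RNA polymerase III from an A box and a B box inside the gene, and stop at a run of T. In C. elegans the mir-35 family is known to be needed in the embryo, the mir-51 family acts in embryonic development and attachment of the pharynx, and let-7 and lin-4 time larval development.

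A mature strand is shown for 7 of the 8 marked genes, so that a reader can see which miRNAs the peaks concern, and none is printed for mir-4932. For each gene 1 arm is given, and the other annotated arms of these genes have other seeds. Capitals mark the seed, bases 2 to 8 counted from the 5′ end. Positions are those of the Ensembl annotation of WBcel235 (ce11), and the letters were read from the RefSeq copy of that assembly on the gene's strand, with U for T. The 4 marked genes of the mir-35 cluster, on the plus strand of chromosome II, share a seed on the 3′ arm. The remaining lines give mir-51 (5′ arm), mir-4812 (3′ arm) and mir-4936 (3′ arm), which share no seed with the cluster or with each other.
mir-35: uCACCGGGuggaaacuagcagu
mir-36: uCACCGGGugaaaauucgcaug
mir-37: uCACCGGGugaacacuugcagu
mir-38: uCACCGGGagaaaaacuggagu
mir-51: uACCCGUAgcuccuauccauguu
mir-4812: cAACCACUgcaauuucucuau
mir-4936: uGCUUUGUggcuuugcuggua

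The DNA under these peaks is shown next because 3 of the summits lie beside the word GGTTCGA, with which the tRNA B box begins. Each line gives the 101 bp centred on the summit, on the strand of the miRNA gene (ce11), and capitals mark GGTTCGA. The windows are chrIV:11026146-11026246 (minus strand) for mir-51, chrIII:3249193-3249293 (plus) for mir-4936, chrX:15242874-15242974 (minus) for mir-4812 and chrII:11537687-11537787 (plus) for the peak of the mir-35 cluster. The last of these holds no such word.
mir-51: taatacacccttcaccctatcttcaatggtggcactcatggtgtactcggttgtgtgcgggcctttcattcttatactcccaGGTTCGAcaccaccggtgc
mir-4936: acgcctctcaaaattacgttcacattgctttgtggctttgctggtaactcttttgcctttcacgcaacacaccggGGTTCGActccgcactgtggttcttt
mir-4812: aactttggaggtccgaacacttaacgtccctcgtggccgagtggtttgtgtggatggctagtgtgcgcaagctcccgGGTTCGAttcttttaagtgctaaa
mir-36: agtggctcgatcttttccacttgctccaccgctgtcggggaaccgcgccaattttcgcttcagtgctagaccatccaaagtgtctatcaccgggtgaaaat

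In the conservative list, the smaller of the authors' 2 thresholded lists over both replicates, with 1092 peaks, 8 of the 261 miRNA genes (3.07%, exact 95% interval 1.33 to 5.95%) were marked, against 3.07% of all annotated genes. The share of miRNA genes is therefore at this all-gene background. That background depends on its mix of classes, since 15363 of the 46890 genes are piRNA genes, of which 11 were marked. The 8 marked miRNA genes were mir-51, mir-4932, mir-4936, mir-4812, mir-35, mir-36, mir-37 and mir-38. The last 4 share 1 peak, so the marked genes came from 5 peaks and 5 of 227 clusters (2.20%, interval 0.719 to 5.07%). In the combined list of 1368 peaks the same 5 peaks marked the same 8 genes, where the background was 3.74%. Each replicate alone gave fewer: replicate 1 marked 4 genes (1.53%, background 1.68%) and replicate 2 marked 3 genes (1.15%, background 0.915%). Intervals are over genes and cover the counting of genes only.

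Among the other short noncoding genes, tRNA genes were marked at 51.3% (314 of 612), small nucleolar RNA genes at 17.1% (59 of 346) and small nuclear RNA genes at 11.6% (15 of 129). The intervals of all 3 classes lie above that of the miRNA genes. Protein-coding genes, at 3.56%, and other noncoding RNA genes, at 3.75% (291 of 7764), lie inside it, and genes of piRNAs, the short guides of the germline Piwi pathway, were marked at 0.0716%. Long genes offer more room for a summit by this rule. When a summit had to lie within 250 bp of the midpoint of a gene, a measure chosen after the data were seen, miRNA genes remained at 3.07% while all genes stood at 1.67% and protein-coding genes at 0.381%. Other noncoding RNA genes, which are also short, stood at 3.61% by that measure, so the share of miRNA genes was not above theirs. By the same measure tRNA genes stood at 51.5%. In a protein-coding gene of the median length, 2027 bp, this window leaves out the 5′ end. In promoter windows, which cover the starts of coding transcripts, 2.81% of protein-coding genes had a conservative summit. The 0.381% is therefore not a share corrected for length, and the 1.67% of all genes includes these genes.

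**Figure D1:**
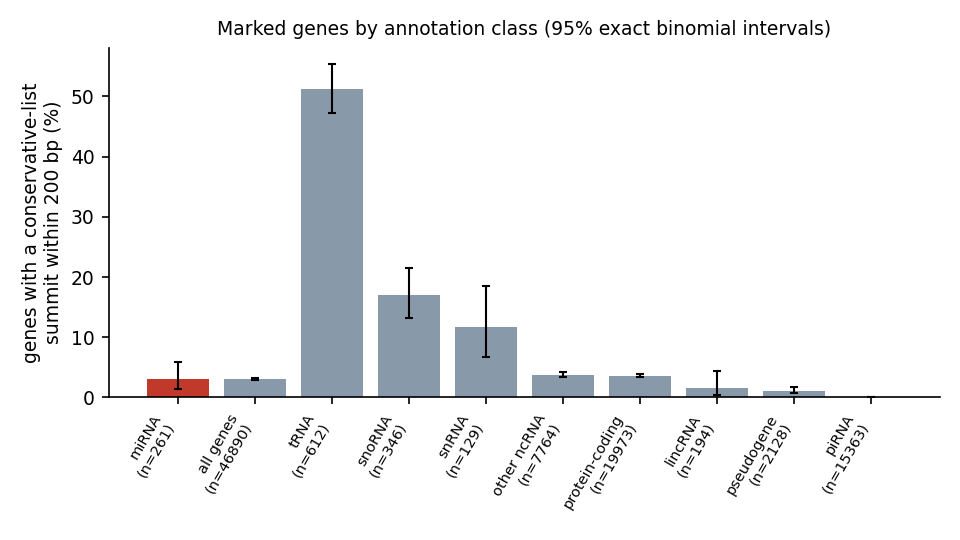
Share of genes with a conservative-list summit in the gene body or within 200 bp (y axis, %), by annotation class (x axis, with the number of genes). Bars are shares and lines are exact 95% binomial intervals over genes; miRNA genes, at 3.07%, stand level with all genes and far under tRNA genes at 51.3%.

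The peak at mir-51, a member of the mir-51 family, was the strongest at any miRNA gene. The authors' signal value, whose scale is not stated, was 187.4 over both libraries, 94.5 in replicate 1 and 82.3 in replicate 2. It ranked 58 of 1092 in the conservative list, whose median signal was 93.9 (quartiles 80.7 and 118.8), and it passed the threshold in each replicate's own list as well. The peak spans chrIV:11026058-11026333, and its summit lies 84 bp upstream of the annotated 5′ end of mir-51, outside any protein-coding gene. The summit falls inside F36H1.17, an annotated noncoding RNA gene of 89 bp on the same strand as mir-51 (chrIV:11026131-11026219), which also holds the GGTTCGA of the window printed above. The nearest annotated tRNA gene is 205369 bp away.

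The peaks at mir-4932 and mir-4936 come next and lie in promoter windows of protein-coding genes. A promoter window covered the 1000 bp before and the 500 bp after the start of a protein-coding transcript. At mir-4932 (chrI:9512307-9512416, plus strand) the signal was 129.0 over both libraries, 85.3 in replicate 1 and 46.8 in replicate 2, and the peak was in both replicates' thresholded lists. Its summit lies 91 bp into the gene, in the promoter windows of klp-16, a kinesin gene, and of smn-1, the worm counterpart of the survival motor neuron gene. It is 54 bp upstream of the nearest 5′ end, that of klp-16. At mir-4936 (chrIII:3249151-3249260, plus strand) the signal was 124.3 over both libraries, 66.7 in replicate 1 and 58.0 in replicate 2, again with a peak in both replicates' thresholded lists. The summit lies 92 bp into the gene, in promoter windows of Y53G8AL.4 and of nduf-9, a gene for a subunit of mitochondrial complex I. It is 249 bp downstream of the nearest coding 5′ end, that of Y53G8AL.4. Whether these peaks belong to the miRNA gene or to its coding neighbours cannot be told apart from peak positions.

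The peak at mir-4812 was weaker, at 87.3 over both libraries, 57.6 in replicate 1 and 36.4 in replicate 2, and ranked 677 in the conservative list. It passed the threshold in replicate 1 and not in replicate 2. The irreproducible discovery rate (IDR) is low for a peak that ranks high in both of 2 paired calls. In replicate 2 the IDR of the mir-4812 peak was 0.214. The gene lies on the strand of its host piki-1, which codes for a phosphoinositide 3-kinase, and the summit is 75 bp upstream of its 5′ end and 1497 bp from the nearest tRNA gene. The mir-35 cluster had the lowest of the 5 peaks, at 84.1 over both libraries, 47.9 in replicate 1 and 36.6 in replicate 2. That peak, chrII:11537599-11537874, passed the threshold in neither replicate alone, so its call rests on the 2 replicates together. Its summit lies 24 bp into mir-36, 33 bp past the end of mir-35, and 96 and 196 bp before mir-37 and mir-38. The cluster lies within Y62F5A.9 on the opposite strand, and the summit is 203158 bp from the nearest tRNA gene. The noncoding RNA genes Y62F5A.14 and Y62F5A.16 lie within 200 bp of that summit.

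None of the 5 summits had a tRNA gene within 200 bp, and each peak was 276 bp wide. In each 101 bp summit window all 66 stretches of 36 bases occurred at no other place in the genome. In all 5 peaks the value of replicate 1 was higher than that of replicate 2, and the replicates differed least in proportion at mir-51 and mir-4936.

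**Figure D2:**
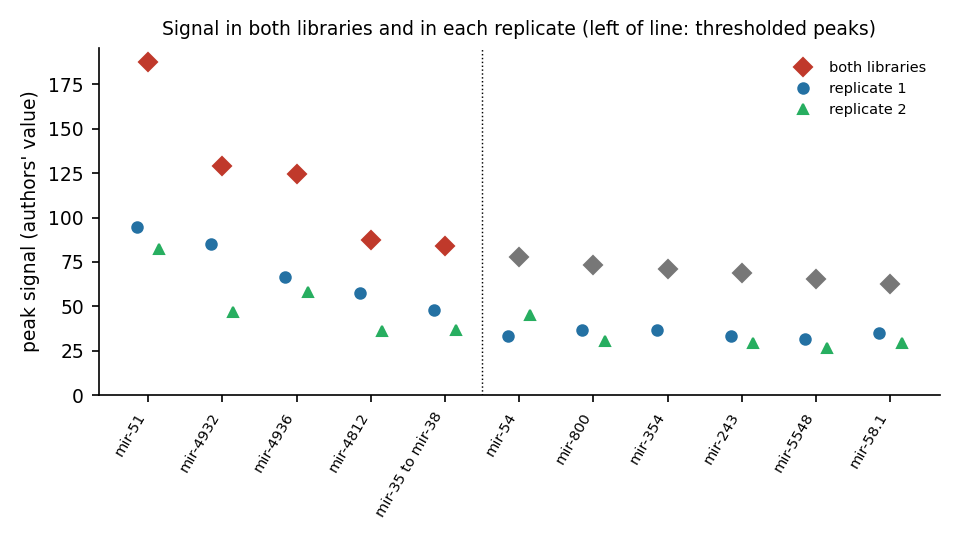
Peak signal (y axis, authors' value) over both libraries (diamonds), in replicate 1 (circles) and in replicate 2 (triangles) at the 5 thresholded miRNA peaks, left of the dotted line, and at the 6 miRNA genes with the highest signal outside the thresholded lists, right of it. The thresholded peaks run from 84.1 to 187.4 and the others from 62.7 to 78.0 over both libraries. At mir-354 the ranked list of replicate 2 had no summit within 200 bp of the gene. The joint peak there holds 36.6 and 25.9 in its 2 per-library columns, which name no replicate.

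The word GGTTCGA, searched on both strands within 50 bp of the summit, was found at 3 of the 5 miRNA peaks, those of mir-51, mir-4936 and mir-4812. It was found at 150 of 294 peaks at tRNA genes (51.0%), at 26 of 793 peaks at neither kind of gene (3.28%) and in 0.725% of all windows of that width laid end to end over the genome. The longer pattern GTTCGANNC gave the same 3 miRNA peaks. With TGGCNNAGT, taken from the tRNA A box, mir-4812 and mir-4932 matched, but that pattern did not set tRNA peaks apart (7.14%, against 7.19% of peaks at neither kind of gene). The word was looked for with its presence at tRNA peaks of these data already known, and a match is a description of letters only.

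At each kind of peak that holds the word, the summit lay mostly upstream of it. Distances were also similar, but the search within 50 bp of the summit limited them. They therefore cannot tell whether the kinds of peak share a spacing. At the miRNA peaks the summit lay upstream of the word, in the word's own direction, by 35 bp at mir-51, 28 bp at mir-4936 and 30 bp at mir-4812. Over 158 words at tRNA peaks the median distance was 28 bp (quartiles 17.3 and 38), with the summit upstream in 86.7%. Over 29 words at peaks of neither kind it was 30 bp (quartiles 20 and 41), with the summit upstream in 75.9%. In the 60 bp of genome after the word, which reach past the windows printed above, a run of 4 T began at base 15 for mir-51, 17 for mir-4936 and 4 for mir-4812. Such a run followed 96.8% of words at tRNA peaks and 62.1% of the 29 words at peaks of neither kind. The word stood on the strand of the miRNA gene in each case, and lay upstream of mir-51 and mir-4812 but 120 bp past the 5′ end of mir-4936, just downstream of that gene.

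Of the 261 miRNA windows, each a gene body with 200 bp on either side, 13 held GGTTCGA. No share over other genes or the genome is given for windows of this size. The count therefore cannot be set against a background. Of these 13 genes 3 were marked (23.1%, interval 5.04 to 53.8%), against 5 of the 248 without it (2.02%, interval 0.658 to 4.64%), but these shares restate the 3 peaks above, and the genes are not independent. Of the 5 marked genes without the word 4 share 1 peak, and the windows of mir-4812 and the mir-1829 genes are alike. In 5 of the 13 the word was on the gene's strand with its centre 40 to 50 bp upstream of the annotated 5′ end. They were mir-51 (49 bp), mir-4812 and mir-1829.2 (45 bp each), and mir-1829.1 and mir-1829.3 (44 bp each). In that interval the same word occurred at 1 of 346 small nucleolar RNA genes, 5 of 19973 protein-coding genes (0.0250%) and 1.92% of miRNA genes, an interval set after the positions were seen. The 100 bp before each of these 5 genes, on the gene's strand (ce11) and ending at the base before its 5′ end, are printed to show how alike the flanks of the mir-1829 group and mir-4812 are. Capitals mark GGTTCGA. The windows are chrIV:11026113-11026212 (minus), chrX:15242850-15242949 (minus), chrX:15588371-15588470 (minus), chrX:14977019-14977118 (plus) and chrX:15236424-15236523 (minus), in the order of the lines.
mir-51: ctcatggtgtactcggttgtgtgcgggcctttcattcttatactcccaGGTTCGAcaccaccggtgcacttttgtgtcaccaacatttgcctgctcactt
mir-4812: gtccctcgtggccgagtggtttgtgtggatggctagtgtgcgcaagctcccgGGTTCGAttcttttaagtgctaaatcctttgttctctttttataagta
mir-1829.1: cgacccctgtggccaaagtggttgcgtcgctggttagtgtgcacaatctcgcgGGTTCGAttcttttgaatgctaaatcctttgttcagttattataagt
mir-1829.2: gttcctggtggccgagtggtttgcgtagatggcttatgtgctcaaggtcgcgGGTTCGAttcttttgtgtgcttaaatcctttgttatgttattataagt
mir-1829.3: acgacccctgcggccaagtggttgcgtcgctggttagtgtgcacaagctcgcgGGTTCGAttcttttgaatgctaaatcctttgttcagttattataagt

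The 3′ arm strands of this X-linked group are alike as well, and mir-4812, mir-1829.2 and mir-1829.3 share the 3′ arm seed in capitals (bases 2 to 8), while mir-1829.1 has another. Their 5′ arm strands, not printed, have 4 different seeds. All 4 genes lie on the strand of a protein-coding host, which is piki-1 for both mir-4812 and mir-1829.3.
mir-4812: cAACCACUgcaauuucucuau
mir-1829.1: cAACCAUUggaauuucucuauu
mir-1829.2: cAACCACUggaauuucucuauu
mir-1829.3: cAACCACUggaauuucucuauu

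Their signals were unequal, and any part the flank sequence plays was not tested. In the authors' joint ranked list used here, which holds 104189 peaks with no threshold and a median signal of 26.3, mir-4812 had 87.3 and passed the threshold. Next, mir-1829.3 had 58.7 over both libraries (27.3 in replicate 1, 31.9 in replicate 2, IDR 0.0656), but that summit lies downstream, inside a tRNA gene that is 166 bp from mir-1829.3, and not at the upstream word. At mir-1829.2 the signal was 37.4 (17.4 and 22.5, IDR 0.342), and mir-1829.1 had no summit within 200 bp in this list. In the authors' other joint ranked list mir-1829.1 had 7.43, and in the ranked list of replicate 2 it had 10.1. Thus 1 of the 4 was marked. A further gene, mir-4806 in ras-1, had the word 96 bp past its 5′ end on its own strand with a ranked summit within 50 bp of it, at 55.9 (IDR 0.0556).

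**Figure D3:**
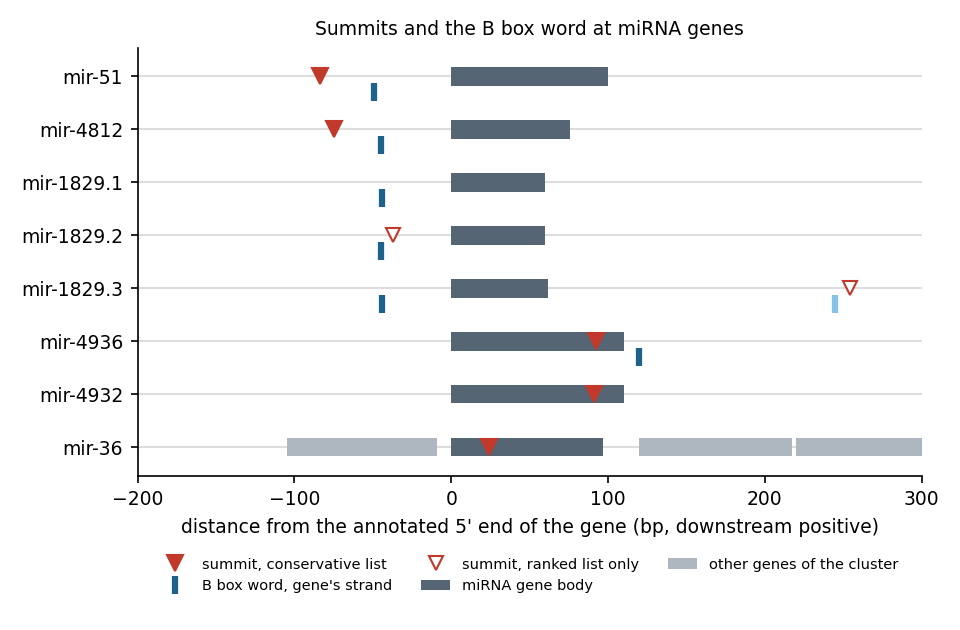
Positions relative to the annotated 5′ end of each miRNA gene (x axis, bp, downstream positive) of the gene body (dark bar), the other genes of the mir-35 cluster (light bars), conservative-list summits (filled triangles), summits of the ranked list only (open triangles) and GGTTCGA (ticks, dark on the gene's strand and light on the other). The word stands 44 to 49 bp upstream of mir-51, mir-4812 and the 3 mir-1829 genes, and summits lie 84 and 75 bp upstream of the first pair.

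Seed families of the marked genes were not marked as a whole. The annotated mature strand of mir-4936 shared a seed with no other gene, and for mir-4932 no seed is given here. Of the 6 genes with the mir-51 seed (mir-51 to mir-56), 1 was marked. The closest to the threshold was mir-54, with 78.0 over both libraries, 33.1 in replicate 1, 45.2 in replicate 2 and an IDR of 0.0121, just above the 0.01 that bounds the conservative list. Its summit lies 178 bp upstream of mir-54, the leading gene of a 3-gene cluster inside F09A5.3. The signals at mir-52 and mir-53 were 38.6 and 28.8, and mir-55 and mir-56 had no ranked summit in reach. Of the 8 genes with the mir-35 seed (mir-35 to mir-42), 4 were marked. On its 5′ arm mir-38 shares a seed with mir-5545, which lies in dnj-27 and had no summit in the joint ranked list used here. Its signal was 16.6 in the authors' other joint ranked list and 15.6 in replicate 1. The trailing cluster members mir-39, mir-40 and mir-41 shared a ranked peak of 41.8 (IDR 0.564). The last family member, mir-42, leads a separate cluster with mir-43 and mir-44, where a conservative peak of 81.8 had its summit 228 bp upstream of mir-42, just outside the 200 bp limit.

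The other large clusters showed little. None of the 4 genes of the cluster mir-229, mir-64, mir-65 and mir-66 was marked, and their best ranked signal was 24.8. The cluster of mir-4807, mir-4808, mir-4809, mir-2220 and mir-4810.2 reached 33.7. The cluster of mir-1018, mir-4925, mir-4923.2, mir-4923.1 and mir-4921 had no ranked summit. The founding miRNAs known from genetics were unmarked. The nearest ranked summit was 240 bp from lin-4 (signal 38.0), 1826 bp from lsy-6, which sets left-right asymmetry of taste neurons, and 2007 bp from let-7, and the nearest conservative summits were 57415, 65349 and 59548 bp away.

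Over all members, 150 of 261 genes (57.5%) had a ranked summit within reach, against 58.1% of all genes. That background includes 15363 piRNA genes, of which 14.4% had one. Apart from piRNA genes and rRNA genes (45% of 20), every class stood above miRNA genes. Other noncoding RNA genes stood at 63.5%, tRNA genes at 92.0% and protein-coding genes, which are longer, at 86.3%. The best signals at the 150 miRNA genes ran from 3.24 to 187.4 with a median of 35.7 (quartiles 22.9 and 46.5). The median was 38.7 over all genes with a ranked summit and 86.8 over tRNA genes. At an IDR of 0.05 or lower 15 miRNA genes had such a peak, and at 0.1 or lower 21 did. No share of all genes is given at these limits, so the counts cannot be set against a background. Between the weakest marked cluster, at 84.1, and mir-54, at 78.0, there was no miRNA gene.

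The next in order were mir-800 at 73.4 (36.9 in replicate 1, 30.5 in replicate 2) and mir-354, in the ribosomal protein gene rps-20, at 71.1. After them came mir-243 at 68.9 (33.2 and 29.2), mir-5548 at 65.6 (31.5 and 26.4) and mir-58.1, of the bantam family and among the abundant worm miRNAs, at 62.7 (35.2 and 29.7). The summits at mir-800, mir-354 and mir-243 lie in promoter windows, of R04A9.3, Y105E8A.14 and R08C7.1. The IDR of these 5 peaks ran from 0.0204 to 0.0639, and none of these peaks, nor that of mir-54, held GGTTCGA at the summit or had a tRNA gene within 200 bp. In the replicates' own ranked lists, 112 miRNA genes had a summit in replicate 1 (median 24.0), 84 in replicate 2 (median 20.1), 52 in both and 117 in neither.

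**Figure D4:**
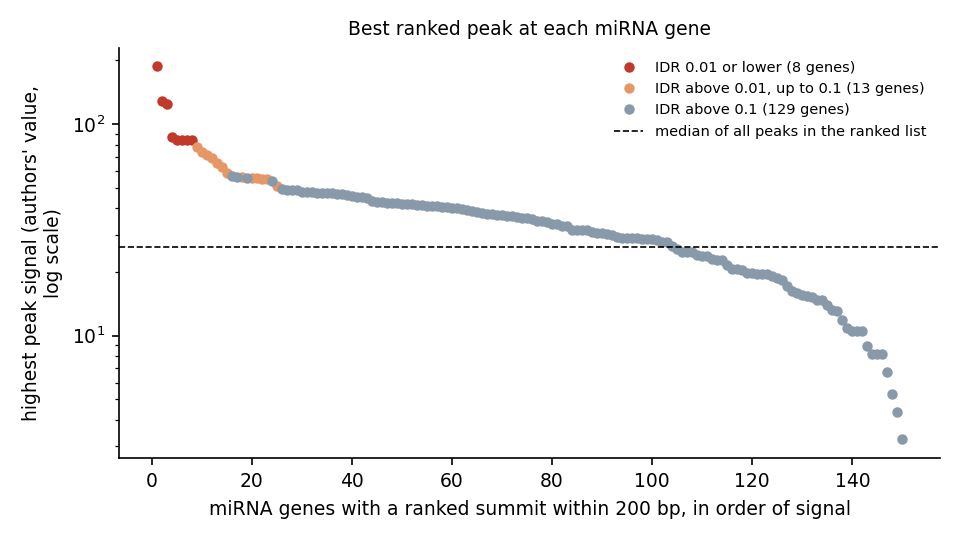
Highest ranked-list signal (y axis, authors' value, log scale) at each of the 150 miRNA genes with a summit within 200 bp, in descending order (x axis), coloured by IDR. The dashed line is the median of all 104189 ranked peaks, 26.3; the 8 marked genes lead, from 187.4 down to 84.1, and the rest fall off from 78.0 without a break.

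By genomic setting, 4 of 32 miRNA genes inside a protein-coding gene on the opposite strand were marked (12.5%, interval 3.51 to 29.0%), and these 4 are the mir-35 cluster with its shared peak. On the same strand as a host 1 of 74 was marked, and outside coding genes 3 of 155. Of the 70 genes whose 5′ end lies in a promoter window 2 were marked (2.86%), against 6 of the other 191 (3.14%). The X chromosome, with 74 miRNA genes, had 1 marked gene, and chromosome V, with 28, had none, which allows up to 12.3% by the exact interval. A tRNA gene lay within 200 bp of 1 miRNA gene, mir-1829.3, which was unmarked.

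For miRNA production and action, a list of 28 genes was written here, which also holds lin-14, lin-29, hbl-1, daf-12, pab-1 and pab-2. Of these, 3 had a conservative summit in a promoter window (10.7%, interval 2.27 to 28.2%), against 2.81% of all protein-coding genes, inside that interval. They were vig-1, for a protein found with the silencing complex (109.4, summit 401 bp upstream), nhl-2, for a cofactor of miRNA silencing (105.2, 855 bp upstream), and xrn-2, for an exonuclease that degrades mature miRNAs (85.6, 45 bp downstream). Other genes lay closer to the first pair of summits: fcho-1 and the piRNA gene 21ur-13751 near that of vig-1, and the noncoding gene F26F4.14 near that of nhl-2. Only vig-1 was bound in each replicate's own thresholded list, and the other 2 in neither. The Drosha gene drsh-1 (70.2, IDR 0.0206) and lin-28, a regulator of let-7 (66.6, IDR 0.0137), came closest among the rest, while dcr-1, for Dicer, had 26.5 and pash-1, for the partner of Drosha, had no ranked summit.

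As a check of the labels, the tagged gene ztf-25 had 0 conservative and 0 combined summits in or within 1000 bp of it and 5 ranked ones, and binding at the tagged gene is not required of the labels. The lists give no read counts, so the depth of either library is unknown, and a gene with no peak is a gene with no peak in these lists.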

How the data were processed

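Peak lists on ce11 from 2 replicates of 1 group were used as deposited (4 thresholded, 4 ranked). They derive from alignments and a control file, per the deposited README texts, while aligner and peak caller are not given in the sources used. Peak signal values are deposited by the authors without a stated scale. The deposited score grows as the IDR falls, up to 1000. IDR values were computed here from the −log10 column of the deposited ranked lists. The 2 per-library columns of the joint ranked list name no replicate, so values by replicate come from the replicates' own lists, and 6 further signal columns were not used. The authors gave another joint ranked list, in which some genes without a ranked summit here had a summit. Absence of a ranked summit refers to the list used here unless stated. Gene positions came from Ensembl release 115 of WBcel235 and symbols and sequence from RefSeq of that assembly, where all 261 gene IDs were found and 45 symbols differ from Ensembl's. Computed here, with Python 3.11.15, pandas 2.3.3, scipy 1.17.1 and pysam 0.24.0, were summit positions (1-based), counts with exact Clopper-Pearson 95% intervals over genes, medians and word matches. Counting was tested on simulated data. With 1 group no test was run, and n is the number of genes, not of samples.

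The text names every marked gene with its cluster and, apart from mir-4932, its seed family. It also names the 6 best unmarked genes, let-7, lin-4 and lsy-6, clusters of 4 or more genes, and bound pathway genes. Members and lists were chosen with earlier results of these data known. mir-1829.1, mir-4806, mir-80 and the peaks between 200 and 1000 bp were named after their values were seen. Alternatives were other windows, lists, IDR limits, annotations and cluster distances, and leaving out each replicate.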

Additional observations from a re-analysis of the deposited data

How the results depend on the processing

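The 8 marked genes and 5 clusters rest on the window and the threshold. Genes numbered 3 with the summit inside the body, 17 with 500 bp, 19 with 1000 bp and 13 with any peak overlap, and 15, 21 and 3 at an IDR of 0.05, 0.1 and 0.001. Clusters numbered 3, 9, 10 and 9 under the same windows and overlap, and 12, 17 and 3 at those IDR limits, and 8 with each gene alone. From the combined list, genes numbered 3, 18, 21 and 13 with the body, 500 bp, 1000 bp and overlap. All-gene shares are not given for these windows, overlaps and IDR limits. Higher counts there therefore do not show a rise over background. Leaving out 1 replicate gave 3 to 4 genes and 3 to 4 clusters. Without replicate 1 mir-4812 and the mir-35 cluster were lost, and without replicate 2 the mir-35 cluster. The median best signal, 35.7, became 41.0 inside gene bodies and 15.4 with genes lacking a summit at 0, and 20.1 to 24.0 with 1 replicate left out, from the lists of the remaining replicate. The 2 peaks shared with promoters became 1 with a narrower promoter window. The 3 bound pathway genes became 1 when either replicate was left out. Over 48 recomputed summary values, 19 stayed close and 29 moved. None reversed, but these are counts and medians without a sign, so none could. The combined list, 100 bp, the RefSeq annotation, wider clusters and removal of tRNA peaks kept the counts within 1.5 times. The midpoint window and the other word searches were added after seeing the data. No paired analysis was possible because there is 1 group and no test. Depth is unknown, so an unmarked gene may lie under detection.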

Other observations

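Several further miRNA genes had a conservative summit between 200 and 1000 bp away. A peak of 85.2 lay 223 bp upstream of mir-80, a member of the bantam family with mir-58.1, in no promoter window and near no tRNA gene, and held no GGTTCGA at its summit. The peak of 81.8 upstream of the cluster of mir-42, mir-43 and mir-44 (chrII:11889445-11889720) was likewise outside promoter windows and away from tRNA genes. By contrast, the peak of 59.8 that lay 314 bp past mir-237 and the peak of 73.8 that lay 300 bp past mir-1819 and 447 bp past mir-2212 sat at tRNA genes, and the peak of 71.5 near mir-5549 sat in the promoter windows of eef-1A.1, for a translation elongation factor, and rfc-4. These genes were named after their values were seen, and no test was made.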
